A study of Mus musculus with 3 samples.

Results

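The genes described here are the mouse zinc finger protein genes whose array name runs from Zfp100 to Zfp499, a block of names that holds repressors, RNA-binding proteins and ubiquitin ligases side by side. They were chosen by name alone, as every gene probe whose name in the array file was Zfp and a 3-digit number in that range. The rule found 113 gene names on 220 probes, out of 19712 named genes and 41174 gene probes in all. Their RNA was measured in adult liver of mice aged 12 weeks, in bone marrow, and in fetal liver of gestation day 13.5, all from C57BL/6 mice without any allele or treatment named in the labels. The age of the mice that gave bone marrow is not clear from the protocol. Each tissue was hybridised once to an Agilent whole-genome array in 1 colour (Cy3), and the number of animals behind each RNA was not given in the sources used here. With 1 array per tissue there are no replicates, so all differences below describe these 3 RNA samples and carry no test, SD or p-value.

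Most proteins of this name series carry classical zinc fingers, small folds in which paired cysteines and histidines hold a zinc ion, and several such fingers in a row read a DNA sequence. Many of them also carry a KRAB domain, which recruits the corepressor Trim28 and with it the histone methyltransferase Setdb1, heterochromatin proteins and histone deacetylases, so that the bound DNA is silenced. Such genes lie in tandem clusters and have multiplied quickly in mammalian evolution. Others in the series are unrelated to silencing and bind RNA, conjugate ubiquitin or SUMO, or activate promoters.

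The level of a gene is given as log2 of its processed signal relative to the 75th percentile of all gene signals on the same array, so that a level of 0 is a signal at that percentile. That percentile lay at 296.5 in adult liver, 894.5 in bone marrow and 386 in fetal liver. Levels of different genes were not set against each other, because probes differ in brightness. A probe was taken as measured where the scanner software called it well above background, and a difference against a tissue where it was not is a lower bound, written "at least". The spot error that the scanner software assigned to measured members had a median of 10.3% of the signal in adult liver, 10.1% in bone marrow and 10.1% in fetal liver. That error covers the spot only, not the spread between animals.

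The tissue labels fitted the markers. The summed level (on the linear scale, in units of the 75th percentile) of 8 hepatocyte genes was 2675 in adult liver, 0.176 in bone marrow and 435 in fetal liver. Summed levels of 9 erythroid genes were 3.04, 342 and 580 in the same order, and those of 8 cell division genes were 2.90, 277 and 315. Fewer cells of a type and less RNA per cell cannot be told apart in such tissue RNA, and the part of cell composition in the differences below was not tested.

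The zinc finger genes were measurable more often than the genes of the array at large. In all 3 tissues 80 of the 113 members (70.8%) were well above background, against 59.3% of the 19712 named genes. Each gene was counted by its probe well above background on most arrays, and the number of probes per gene was not matched between these sets. Adult liver had 81 measurable members (71.7%), bone marrow 95 (84.1%) and fetal liver 96 (85.0%). Of all named genes 65.4%, 70.7% and 70.4% were measurable in the same order, so adult liver was lowest there too. Another 14 members (12.4%, against 22.2% of the named genes) were dim everywhere, among them Zfp352, a gene of the early cleavage embryo. In some tissues only, 19 members were measurable, as were 3641 of the 19712 named genes. Of these 19, 12 were well above background in bone marrow and fetal liver and dim in adult liver. The split of the named genes by tissue was not counted, so the 12 cannot be set against it. Zfp112, Zfp365 and Zfp462 were measurable in fetal liver alone, Zfp119, Zfp295 and Zfp386 in bone marrow alone, and Zfp423 in both livers alone.

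Among the 80 members measurable everywhere, the level varied little from tissue to tissue. The range between the highest and the lowest tissue had a median of 1.12 on the log2 scale (2.17-fold), against 1.55 (2.93-fold) for all named genes measurable everywhere. It stayed under 2-fold for 34 members (42.5%, against 27.8% of the named genes) and under 4-fold for 65 (81.2%, against 63.4%). Fetal liver held the highest level of 38 of these members, bone marrow of 25 and adult liver of 17 (47.5%, 31.2% and 21.2%, against 33.7%, 26.4% and 39.9% of the named genes). Adult liver held the lowest level of 39, bone marrow of 29 and fetal liver of 12 (48.8%, 36.2% and 15.0%, against 37.2%, 40.9% and 22%). Small differences were not particular to this block of names. Between the livers the median size of the measured log2 differences was 0.84 for members, 0.76 for other Zfp genes and 1.02 for all named genes. Between bone marrow and fetal liver it was 0.72, 0.66 and 0.74, and between adult liver and bone marrow 0.78, 0.88 and 1.16.

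On their chosen probes, the 5 steadiest members differed by less than 0.5 on the log2 scale over the tissues. Zfp294, now named Ltn1 and encoding the ubiquitin ligase Listerin that clears stalled nascent proteins from ribosomes, had levels of -0.20 in adult liver, -0.34 in bone marrow and -0.17 in fetal liver. Zfp324 had -2.80, -2.75 and -2.41, Zfp384 had 0.78, 1.18 and 0.99, and Zfp238 (now Zbtb18, a repressor known from brain development) had 1.34, 0.95 and 0.90. The level of Zfp281, a regulator of pluripotency in embryonic stem cells, was 0.58 in adult liver, 1.02 in bone marrow and 0.77 in fetal liver. On the chosen probes all of these tissue differences were smaller than 1.5-fold. One of the further Zfp384 probes gave a log2 difference of -0.75 for adult over fetal liver. A further Zfp324 probe gave -0.62 for bone marrow over fetal liver.

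**Figure D1:**
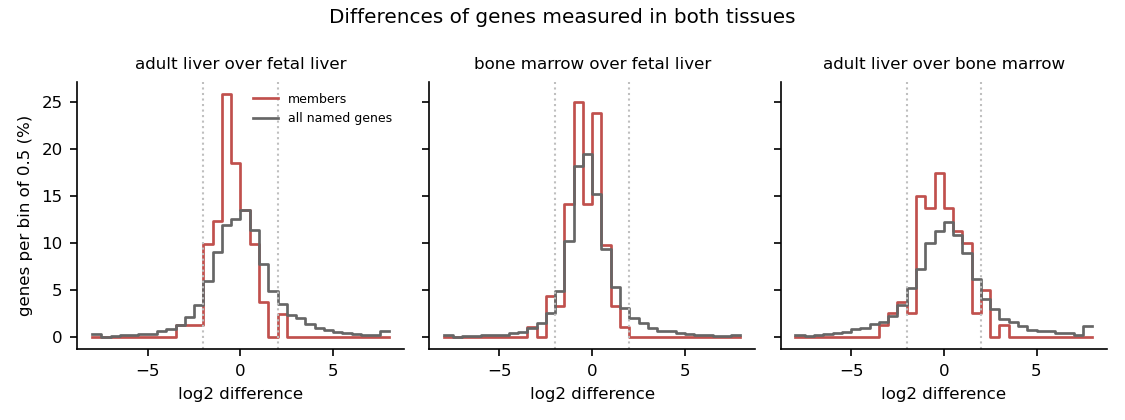
Share of genes (vertical axis, in % per bin of 0.5) by log2 difference (horizontal axis) for adult liver over fetal liver, bone marrow over fetal liver and adult liver over bone marrow; the red line shows the zinc finger members and the grey line all named genes, each measured in both tissues, values beyond 8 are placed in the outermost bins, and dotted lines mark 4-fold. The members are narrower than the genes at large in every panel. In the first panel their bulk lies left of 0, with 57 of 81 members lower in adult liver, against 49.3% of all named genes.

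Adult liver against fetal liver sets the mature organ against the same organ while it forms blood. Zinc finger genes leaned to lower levels in adult liver, by small steps. Of 96 members compared, adult liver was at least 4-fold lower for 7 and at least 4-fold higher for 2 (25.5% of all named genes were apart either way), whereas 11.7% of all named genes were at least 4-fold lower and 13.8% at least 4-fold higher. At 2-fold, 28 members were lower (26.3% of named genes) and 5 higher (26.1% of named genes, 52.3% either way). Of the 81 members measured in both, 57 were lower in adult liver (70.4%). So were 49.3% of all named genes and 65.3% of other Zfp genes. The median log2 difference of the 81 members was -0.59, against 0.03 over all named genes. That median was -0.20 with normexp background correction and -0.38 with the mean of a gene's probes. The 246 other genes named Zfp had a median of -0.41, which also lay below 0. Relative to the median of all genes the members stood at -0.62 with scaling to the 75th percentile. Scaling to the median or to spike-in controls shifts all genes of an array alike and cannot change that value. It was -0.54 after quantile normalization and -0.28 with normexp.

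Zfp251 had the largest difference measured on both sides. Its signal was 155 ± 16.2 in adult liver, 2290 ± 229 in bone marrow and 2110 ± 211 in fetal liver (± the spot error of the scanner software), which are levels of -0.94, 1.36 and 2.45. Its log2 difference was -3.39 for adult over fetal liver, and it was 4.90-fold lower in adult liver than in bone marrow. The probe lies on chromosome 15, 76682058 to 76682117 (mm9), and a further probe of this name was dim on all 3 arrays.

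Zfp472 (probe on chromosome 17, 33115470 to 33115529, mm9) was read by 3 probes. Its level was -2.25 in adult liver, 0.29 in bone marrow and 0.02 in fetal liver, so both blood-forming tissues stood above adult liver, by 5.78-fold and 4.82-fold. The remaining pair of Zfp472 probes also differed by at least 4-fold in the same directions. Zfp101, on the same chromosome at 33517753 to 33517812, had levels of -3.40, -1.27 and -0.70 in the same order of tissues. It was 6.48-fold lower in adult liver than in fetal liver and 4.36-fold lower than in bone marrow, on a single probe.

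The other 4 members that were lower in adult liver were dim there. Zfp239 (chromosome 6, 117822561 to 117822620, mm9) had signals of 4.28 in adult liver, 254 in bone marrow and 260.0 in fetal liver. It was at least 10.6-fold lower in adult liver than in fetal liver. Zfp185, whose protein carries a LIM domain and sits on the actin skeleton, was at least 6.75-fold lower, Zfp286 at least 6.46-fold, and Zfp217 at least 4.76-fold. Both probes of Zfp286 were at least 4-fold apart. Zfp217, known in human cells as a partner of the CoREST repressor complex, had signals of 11.8 in adult liver, 386.0 in bone marrow and 117 in fetal liver.

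On their chosen probes, Zfp467 and Zfp473 exceeded 4-fold in the direction of adult liver. Zfp467, a factor that favours fat cells over bone-forming cells in marrow stroma, had signals of 254 in adult liver, 180.0 in bone marrow and 74.9 in fetal liver. After scaling its levels were -0.22, -2.31 and -2.37, with adult liver 4.41-fold above fetal liver and 4.26-fold above bone marrow. Zfp473, which in human cells takes part in the processing of histone pre-mRNA, had levels of -0.85, -4.11 and -3.01 and was 4.45-fold above fetal liver in adult liver. A second Zfp473 probe went the other way, with signals of 3.91 in adult liver (dim), 58.6 in bone marrow and 38.2 in fetal liver. The log2 difference of that probe is a bound of -0.63, so the probes of Zfp473 disagree in direction in this comparison.

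The threshold of 4-fold cut through a continuum. The members nearest to it were 4.41-fold and 4.45-fold apart on the inside and 3.86-fold and at least 3.88-fold on the outside. Normexp background correction with an offset of 50, which shrinks the differences of dim spots, left 0 members at least 4-fold higher and 1 lower, and spike-in scaling gave 0 and 18.

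**Figure D2:**
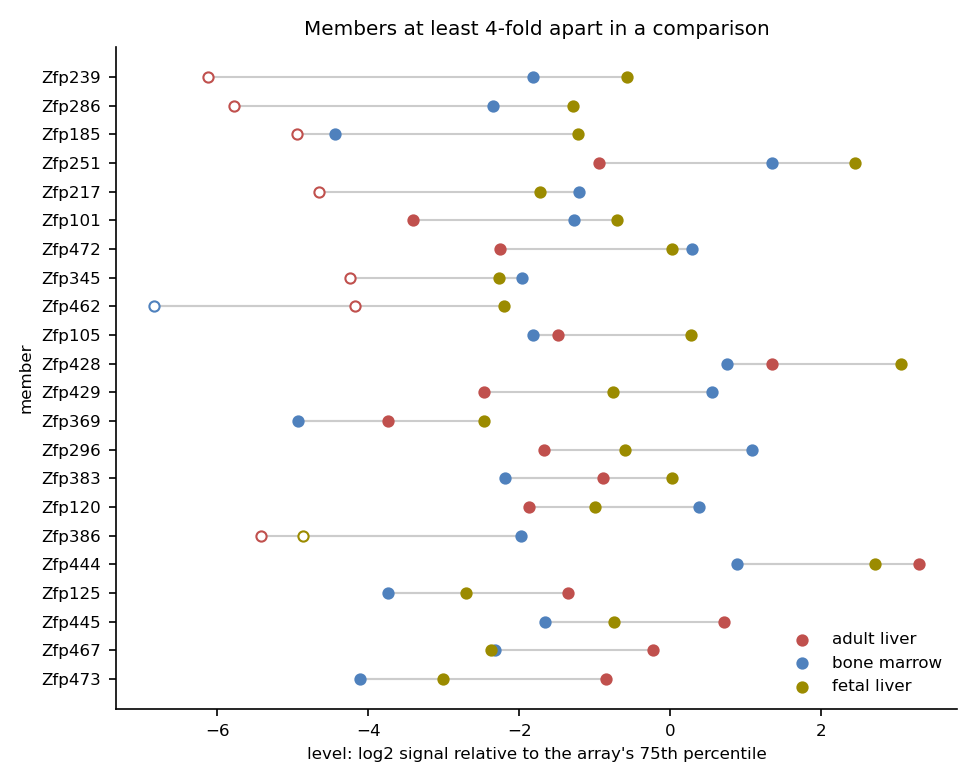
Level (horizontal axis, log2 of the signal relative to the array's 75th percentile) of the 22 members at least 4-fold apart in a comparison, ordered from those lowest in adult liver relative to fetal liver at the top; filled points were well above background and open points were not. Zfp239 and Zfp286 at the top are dim in adult liver, whereas adult liver lies to the right for Zfp467 and Zfp473 at the bottom.

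Bone marrow against fetal liver compares the blood-forming organ of the adult with that of the fetus. Here the zinc finger genes stayed closest. Of 99 members compared, 6 were at least 4-fold lower in bone marrow (9.21% of all named genes were) and 1 was at least 4-fold higher (8.19% of named genes, 17.4% either way). At 2-fold, 25 were lower and 5 higher, against 24.7% and 16.8% of named genes (41.5% either way). The median log2 difference over 92 members was -0.41, against -0.25 over all named genes. Relative to that median the members stood at -0.16, and at -0.12 after quantile normalization.

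Zfp185 (probe on chromosome X, 70276711 to 70276770, mm9) had the largest difference measured on both sides. Its signal was 41.4 in bone marrow and 166 in fetal liver, beside 9.65 in adult liver, and its level in bone marrow was 9.29-fold lower than in fetal liver. It was the only member at least 4-fold above both other tissues in fetal liver. Zfp462, a chromatin factor needed in embryonic development, had signals of 7.84 in bone marrow and 84.3 in fetal liver and was at least 8.24-fold lower in bone marrow. Zfp428 had levels of 0.76 in bone marrow and 3.06 in fetal liver (4.96-fold lower), Zfp383 had -2.19 and 0.03 (4.66-fold), and Zfp105 had -1.81 and 0.28 (4.27-fold). In these last 3 genes adult liver lay between the other tissues. Each of them had a single probe.

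Zfp369 was 5.52-fold lower in bone marrow on its chosen probe, with signals of 29.3 in bone marrow and 69.8 in fetal liver. A second Zfp369 probe was measurable in bone marrow alone, with a signal of 108 against 16.4 in fetal liver, a log2 difference of at least 1.51 the other way. No direction can therefore be given for this gene. The only member at least 4-fold higher in bone marrow was Zfp386, with signals of 228 in bone marrow and 13.3 in fetal liver (dim), at least 6.56-fold apart. Zfp386 had 6 probes, and a second one, with a signal of 77 in bone marrow, gave a bound of 1.15 on the log2 scale. Just inside the threshold lay 4.27-fold and 4.66-fold, and just outside it 3.79-fold and 3.53-fold, all lower in bone marrow.

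**Figure D3:**
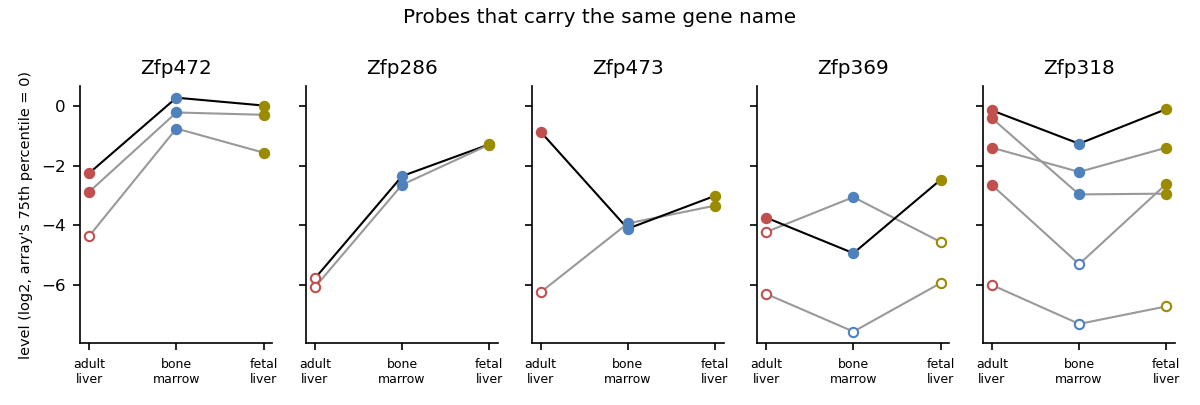
Level (vertical axis, log2 of the signal relative to the array's 75th percentile) of every probe that carries the name Zfp472, Zfp286, Zfp473, Zfp369 or Zfp318, in adult liver, bone marrow and fetal liver; the black line joins the probe that represents the gene, grey lines the others, and open points were not well above background. The lines of Zfp472 and Zfp286 run together, those of Zfp473 and Zfp369 cross.

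The direction of this comparison depends on how the arrays are scaled. Scaled to the spike-in controls, which are RNAs of known amount added to each labelling reaction, the median over all named genes moved by 2.58 on the log2 scale for bone marrow over fetal liver, by -0.54 for adult over fetal liver and by -3.12 for adult liver over bone marrow. Under that scaling 55 members were at least 4-fold higher in bone marrow than in fetal liver and 0 lower, as were 61.7% and 1.76% of all named genes. The shift is the same for every gene, so the sign changes of Zfp105, Zfp369, Zfp383 and Zfp428 under it follow from its size, and relative to all genes the members stayed at -0.16. With scaling to the median, 2 members were higher and 3 lower, and with normexp 0 and 2.

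Adult liver against bone marrow showed the most differences. Of 96 members, 9 fell below bone marrow by 4-fold or more and 5 exceeded it by as much, against 14.4% and 18% of all named genes (32.3% either way). At 2-fold, 26 were lower and 16 higher, against 26.2% and 31.2% of named genes (57.4% either way). The median log2 difference was -0.16 over 80 members and 0.16 over all named genes. Spike-in scaling, with its shift common to all genes, left 0 members higher and 83 lower (5.17% and 70.6% of all named genes), median scaling 3 and 11, and normexp 3 and 2.

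Zfp429 (chromosome 13, 67490657 to 67490716, mm9) had the largest difference measured on both sides among those lower in adult liver. Its levels were -2.47 in adult liver, 0.55 in bone marrow and -0.76 in fetal liver, which is 8.09-fold lower in adult liver than in bone marrow. Zfp296, a factor of embryonic stem cells, had levels of -1.67, 1.09 and -0.60 and was 6.76-fold lower in adult liver, and its second probe was lower as well by 1.56 on the log2 scale. The levels of Zfp120 were -1.86, 0.39 and -0.99, with adult liver 4.76-fold below bone marrow. Together with Zfp251, Zfp472, Zfp101, Zfp217, Zfp239 and Zfp345 (at least 4.03-fold), these made up the 9. Zfp429, Zfp296 and Zfp120 were higher in bone marrow than in fetal liver too, by 2.48-fold, 3.22-fold and 2.60-fold.

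Adult liver exceeded bone marrow for Zfp473 (9.55-fold, with the disagreement of its probes described above), Zfp467, Zfp444, Zfp125 and Zfp445. Zfp445 binds imprinting control regions and keeps their methylation through the wave of erasure in the early embryo. Its levels were 0.71 in adult liver, -1.65 in bone marrow and -0.75 in fetal liver, 5.14-fold above bone marrow and 2.75-fold above fetal liver in adult liver. A second Zfp445 probe went the same way by 1.71 on the log2 scale against bone marrow. Zfp444 had levels of 3.29, 0.89 and 2.71 (5.29-fold) and Zfp125 had -1.35, -3.74 and -2.70 (5.22-fold). The common shift of spike-in scaling exceeds the differences of Zfp444, Zfp125, Zfp445 and Zfp467 and turns their sign. The members nearest to the threshold were 4.26-fold and at least 4.03-fold apart on the inside. On the outside they were Zfp386, with a bound a hair under 4-fold, and a gene 3.40-fold apart.

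Across comparisons, 5 members lay at least 4-fold below both other tissues in adult liver (Zfp101, Zfp217, Zfp239, Zfp251 and Zfp472), 2 lay above both there on their chosen probes (Zfp467, and Zfp473 with its disagreeing second probe), and 1 lay above both in fetal liver (Zfp185). None lay 4-fold above or below both in bone marrow. Of the 19712 named genes 1091 lay below both in adult liver, 1617 above both there and 258 above both in fetal liver, and 782 lay above and 847 below both in bone marrow.

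Members of a list drawn up for roles in blood cells were counted next. Of the 8 members on that list, 6 were measurable everywhere. The roles given above for Zfp217, Zfp281 and Zfp467 are not roles in blood cells. Of the 8, Zfp467 was 4-fold higher and Zfp217 4-fold lower in adult liver than in either other tissue (2 of 8, beside 25.5% of all named genes apart either way between the livers and 32.3% between adult liver and bone marrow). On the chosen probes none of the 8 was 4-fold apart between bone marrow and fetal liver. Zfp148, which binds GC-rich promoters and works with Gata1 in red cell and platelet precursors, had levels of 3.16 in adult liver, 1.75 in bone marrow and 2.71 in fetal liver, within 2.66-fold. Its 3 further probes spanned less between adult liver and bone marrow, from 0.05 to 0.52 on the log2 scale. Zfp335, a subunit of a histone methyltransferase complex needed for T-cell maturation, had 1.29, 1.29 and 1.91. Zfp410, an activator of Chd4 and through it a regulator of fetal globin silencing, had 0.57, 0.51 and 1.51, so that both adult tissues lay about equally below fetal liver, by 1.92-fold in adult liver and 2.01-fold in bone marrow. Zfp318, which mature B cells need for IgD, had -0.14, -1.26 and -0.10 on its chosen probe. Another Zfp318 probe gave a log2 difference of 2.53 for adult over fetal liver, while 3 further ones were level or dim in that comparison. The same probe gave 2.55 for adult liver over bone marrow. One of the further probes, dim in bone marrow, gave bounds of 2.59 for adult liver over bone marrow and -2.63 for bone marrow over fetal liver, so the size of the Zfp318 difference depends on the probe. Zfp423, a partner of early B-cell factor and a marker of fat cell precursors, was measurable in both livers alone, with signals of 25.3 in adult liver, 16.6 in bone marrow and 20.5 in fetal liver.

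Members that act on RNA or on the spindle numbered 6, all measurable everywhere, and had no common pattern. Zfp207, a microtubule-associated protein that helps chromosomes attach to the spindle, had levels of 1.82 in adult liver, 3.42 in bone marrow and 3.08 in fetal liver, 3.03-fold below bone marrow in adult liver. Zfp346, which binds double-stranded RNA, had -2.78, -1.84 and -1.09, and Zfp106, an RNA-binding protein of motor neurons and muscle, had 0.59, 0.55 and 1.56. Zfp326, which in human cells links transcript elongation to splicing, had 0.83, 0.22 and 0.94. Zfp259, now Zpr1, a partner of the survival motor neuron complex, had 1.49, 0.85 and 1.62. Apart from Zfp473, none of these genes reached 4-fold in any comparison. Of all named genes, 25.5% were that far apart between the livers and 17.4% for bone marrow over fetal liver. For adult liver over bone marrow the share was 32.3%. A group of 6 is too small to be told from the genes at large by such a count.

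Ubiquitin and SUMO enzymes with old names in the series were all measurable. The ubiquitin ligase gene Rnf114 (Zfp313) had signals of 12500 in adult liver, 20600 in bone marrow and 8400 in fetal liver, which are levels of 5.40, 4.53 and 4.44. Rnf115 (Zfp364) had 2.19, 2.64 and 1.84, and Rnf112 (Zfp179), a ligase known from nervous tissue, had -1.84, -2.26 and -3.14. The SUMO ligase Zfp451 had -0.67, -0.55 and 0.55 on its chosen probe, and its 4 probes differed in sign between bone marrow and fetal liver. On the chosen probes none of the 5 members of this group reached 4-fold in any comparison, beside the same 25.5%, 17.4% and 32.3% of all named genes. A second Rnf114 probe, however, gave a log2 difference of 2.08 for adult over fetal liver, and another Zfp451 probe, dim in adult liver, a bound of -2.49 for adult liver over bone marrow.

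Factors with a BTB domain, a fold that pairs such proteins and recruits corepressors, included 3 members measurable everywhere. None of the 3 was 4-fold apart in any comparison, beside the same 25.5%, 17.4% and 32.3% of all named genes. These role groups are too small for such counts to tell them from the genes at large. Zfp131 had signals of 593 in adult liver, 4200 in bone marrow and 2420 in fetal liver, and after scaling was 3.13-fold lower in adult than in fetal liver. Zfp161, now Zbtb14, had -1.34, -0.26 and -0.02 (2.49-fold lower), while Zbtb18 was among the steadiest genes. Zfp295, now Zbtb21, was measurable in bone marrow alone, with a signal of 30.9.

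A list of corepressors that zinc finger repressors work through was compared as well. It also holds the DNA methylation genes Dnmt1, Dnmt3a and Uhrf1. Lower values in adult than in fetal liver were found for 20 of 23 genes, against 49.3% of all named genes measured in both. Of these 23 genes compared, 4 were at least 4-fold lower in adult than in fetal liver and 0 higher (17.4% lower, against 11.7% of all named genes), 15 were at least 2-fold lower (65.2%, against 26.3%), and the median log2 difference was -1.54, against 0.03 over all named genes. Trim28, the direct partner of KRAB domains, had signals of 980.0 in adult liver, 10200 in bone marrow and 4370 in fetal liver, 3.42-fold lower in adult than in fetal liver. Setdb1 was 2.22-fold lower in adult than in fetal liver and the heterochromatin protein gene Cbx3 4.97-fold. The 4 past 4-fold were Uhrf1 (418-fold), Dnmt1 (14.3-fold), Cbx3 and Hdac1 (4.88-fold). The Uhrf1 signal in adult liver was 23.9, near the lowest signal well above background on that array (18.9), so the size of its fold is uncertain. Of the 8 cell division genes summed above, 7 were at least 4-fold lower in adult than in fetal liver, and Bub1 was 1.39-fold higher. Their median log2 difference, over those measured in both tissues, was -7.81, and their part in the corepressor result was not tested. The remodelling subunits Chd3 (2.76-fold), Mbd3 and Chd4 were instead higher in adult liver, the last at 1.34-fold. Between bone marrow and fetal liver no gene of this list measured in both was 4-fold apart. Hdac2, dim in fetal liver, was at least 2.67-fold higher in bone marrow. The median was -0.25, equal to that of all named genes to 2 decimals.

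**Figure D4:**
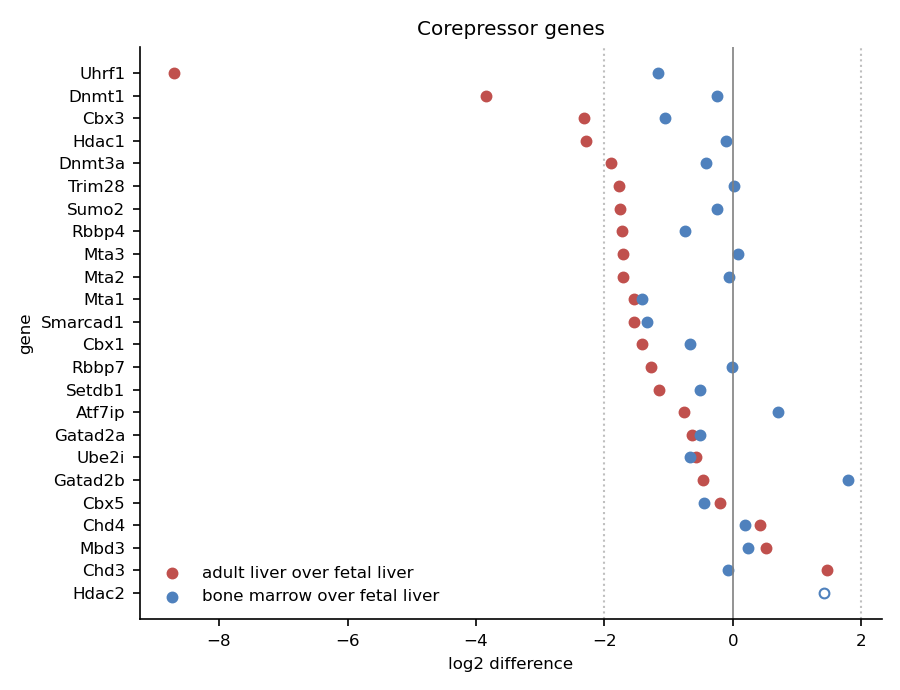
Log2 difference (horizontal axis) of the 24 genes of the corepressor list for adult liver over fetal liver (red) and bone marrow over fetal liver (blue). Open points are lower bounds and dotted lines mark 4-fold. Most red points lie left of 0, led by Uhrf1 and Dnmt1. All blue points lie between the dotted lines, though that of Hdac2 is only a lower bound.

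The members lay on 19 chromosomes, with 23 on chromosome 7 and 11 on chromosome 13. In total 37 of them stood within 250 kb of another member, in 12 clusters. Of these 37, 22 (59.5%) were measurable in all 3 tissues, against 58 of the other 76 (76.3%), and 8 were dim in all 3 tissues. The largest cluster held Zfp180, Zfp112, Zfp235, Zfp114, Zfp111, Zfp109 and Zfp108 on chromosome 7, from 24892501 to 25046911 (mm9). None of these 7 neighbours was found 4-fold apart in any comparison. The shares of all named genes were 25.5% between the livers, 17.4% for bone marrow over fetal liver and 32.3% for adult liver over bone marrow. Zfp109 had no fold in any comparison, and Zfp112 had only a bound, for bone marrow over fetal liver. With 7 genes this count cannot tell the cluster from the genes at large. Zfp180 had levels of 0.58 in adult liver, 1.54 in bone marrow and 1.56 in fetal liver, Zfp108 had -0.89, -2.63 and -1.70, and Zfp109 was dim everywhere. On chromosome 9 the probes of Zfp445 and Zfp105 lie within 122760491 to 122840027. These neighbours differed in opposite directions between the livers, Zfp445 being highest in adult liver and Zfp105 in fetal liver. Both were lowest in bone marrow. Neighbouring zinc finger genes resemble each other in sequence, and probes that cross-hybridise cannot be recognised from these files.

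Promoters of the members, taken from RefSeq (GRCm38.p6) as 250 bases before to 50 after the gene start, were found for 91 members, using the first promoter listed for each gene. They were rich in CG dinucleotides, with a median of 16 in 300 bases, against 12 for 253 other Zfp genes and 7 for all 27025 genes. At least 10 were present in 79.1% of member promoters and in 43.9% of all. The heptamer CCGGAAG, the site of ETS factors, stood in 25.3% of member promoters on either strand, in 20.6% of those of other Zfp genes and in 9.12% of all promoters. The hexamer ACTACA stood in 28.6% of member promoters, in 23.3% of those of other Zfp genes and in 10.7% of all. Followed by A, any base and TCC, it makes a longer motif known in human cells as a binding site of ZNF143, the counterpart of Zfp143. That longer motif stood in 5 member promoters (5.49%, against 3.16% of other Zfp genes and 1.11% of all). The windows, from chromosomes 7 (Zfp108, Zfp128 and Zfp180), 8 and 11, are shown because the match goes on beyond the motif in capitals. Each is written 5′ to 3′ on the strand that holds the motif.
Zfp108: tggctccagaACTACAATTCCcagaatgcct
Zfp128: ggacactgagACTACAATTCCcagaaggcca
Zfp180: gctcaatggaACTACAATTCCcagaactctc
Zfp358: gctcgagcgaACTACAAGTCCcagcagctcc
Zfp454: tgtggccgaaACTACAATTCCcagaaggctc

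In the Zfp358 promoter the motif reads on the strand of the gene, and in the other 4 on the opposite strand. Their genes did not share a tissue pattern. Zfp128 and Zfp454 were dim in all 3 tissues, Zfp180 was lowest in adult liver, and Zfp108 and Zfp358 were highest there. Zfp358 had levels of -0.33 in adult liver, -0.99 in bone marrow and -1.29 in fetal liver. Zfp143 itself, an activator of small nuclear RNA and many coding genes, had levels of -1.17, 0.52 and 0.25 and was 2.67-fold lower in adult than in fetal liver.

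**Figure D5:**
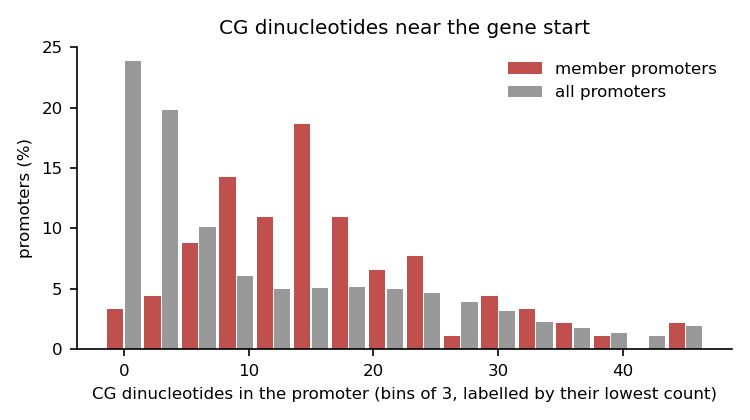
Share of promoters (vertical axis, in %) by their number of CG dinucleotides in 300 bases (horizontal axis, bins of 3, counts of 45 and above in the last) for 91 members (red) and for all genes (grey). The members have a median of 16 and the genes at large of 7, and few member promoters lie in the lowest bins.

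In all 18 motifs were searched on both strands, after the data had been seen. GGGCGG stood in 47.3% of member promoters and 35.9% of all. CCAAT stood in 44.0% and 37.9%. AGATAA, which red cell factors of the Gata family bind, stood in 6.59% and 11.4%. For TATAAA the shares were 9.89% and 14.2%. CGGAAG, which lies within CCGGAAG, stood in 41.8% and 17.2%, and in 33.6% of other Zfp genes. The NRF1 motif and its form with an open middle base stood in 3.30% and 7.69% of member promoters and in 0.977% and 4.78% of all. TTTGGCGC stood in 2.20% and 0.537%, TTTCCCGC in 3.30% and 1.11%, the Kaiso-type palindrome in 1 of 91 and 0.496%, CACGTG in 7.69% and 7.24%, and ATGGCGGC in 5.49% and 2.38%. TGACGTCA stood in 4.40% and 1.88%, TGANTCA in 3.30% and 7.93%, and CAAAGTCCA in 0 of 91 and 0.477%. The shares were not adjusted for the higher CG content of the member promoters, whose part in them was not tested.

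Promoters of 3 members with different patterns are shown to set their sequence beside their levels, with matches of the CCAAT box and the GGGCGG box on either strand in capitals and no match of the ETS or ACTACA motifs found. Zfp472, 4-fold below both other tissues in adult liver, lies at chr17:32965581-32965880 on the plus strand and holds 10 CG dinucleotides. Zfp467, 4-fold above both in adult liver, lies at chr6:48445041-48445340 on the minus strand and holds 18. Zfp185, 4-fold above both in fetal liver, lies at chrX:72987089-72987388 on the plus strand and holds 20.
Zfp472: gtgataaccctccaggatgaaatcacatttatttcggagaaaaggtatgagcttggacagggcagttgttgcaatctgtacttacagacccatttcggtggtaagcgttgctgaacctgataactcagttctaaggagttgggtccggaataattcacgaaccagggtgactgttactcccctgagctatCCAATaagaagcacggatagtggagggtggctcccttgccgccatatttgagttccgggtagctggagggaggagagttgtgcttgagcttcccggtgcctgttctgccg
Zfp467: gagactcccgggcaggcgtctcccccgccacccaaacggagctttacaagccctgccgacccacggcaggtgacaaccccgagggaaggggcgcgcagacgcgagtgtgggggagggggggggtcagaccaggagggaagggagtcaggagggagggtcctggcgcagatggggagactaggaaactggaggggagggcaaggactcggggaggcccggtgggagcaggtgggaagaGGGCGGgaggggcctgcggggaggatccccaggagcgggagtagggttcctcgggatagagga
Zfp185: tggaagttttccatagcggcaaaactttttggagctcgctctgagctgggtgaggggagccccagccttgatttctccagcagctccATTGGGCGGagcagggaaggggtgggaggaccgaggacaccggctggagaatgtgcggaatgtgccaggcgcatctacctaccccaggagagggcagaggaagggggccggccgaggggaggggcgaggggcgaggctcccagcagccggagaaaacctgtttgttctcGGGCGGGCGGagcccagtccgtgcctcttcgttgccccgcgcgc

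Genes named outside the rule for named members, such as Zfp143 and those of the chromosome 7 cluster, were picked after their values were seen. Probes of 1 name gave a measure of technical spread. Of the 67 names with several probes, 28 had at least 2 measured for adult over fetal liver, and their log2 differences spread over a median of 0.41 (1.33-fold), with the same sign in 24. The spread was 0.70 for bone marrow over fetal liver (42 names, same sign in 29) and 0.64 for adult liver over bone marrow (28 names, same sign in 21). No name had 1 measured probe at least 4-fold higher and another at least 4-fold lower in the same comparison. The widest disagreement was that of Zfp397, whose 2 measured probes gave -1.07 and 2.54 for adult liver over bone marrow. Those of Zfp276 gave 0.63 and 3.43 there. Of the 30 differences of at least 4-fold over the 3 comparisons, 12 had a further probe to compare, and 3 of these had a further probe at least 4-fold the same way, namely Zfp472 in both comparisons with adult liver and Zfp286 in adult over fetal liver.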

How the data were processed

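The scanner software was Agilent Feature Extraction 10.5.1.1, per the submitters' processing notes, and probe coordinates are on mm9, per the file headers. The deposited processed signal intensity had a fitted spatial surface subtracted as background, per the file headers, and was not normalized between arrays. In the authors' deposited table of the series, the raw intensity column equalled the spot error within 1% on 45018 of 45018 spots of each array. Its normalized ratio column (medians 0.187 adult liver, 0.0936 bone marrow, 0.130 fetal liver) and fold column (medians 1 adult liver, 0.430 bone marrow, 0.619 fetal liver) were made by the authors in a way not given in the sources used here. No result uses that table.

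Levels were computed as log2 signal less the 75th percentile of that array's 43379 gene spots (Python 3.11.15, numpy 2.4.6, pandas 2.3.3). Outlier spots were left out (75 in adult liver, 80 in bone marrow, 71 in fetal liver, none of members). No spot was saturated. A gene was represented by its probe well above background on most arrays, then the brightest. Names came from RefSeq by accession (24844 probes), symbol (6045) or older symbol (1796); 8489 stayed unnamed. Of member probes 219 of 220 had a current name, and 12 members bear another symbol today. A lower bound was formed against the higher of the dim signal and the array's lowest signal well above background (18.9 in adult liver, 23.7 in bone marrow, 15 in fetal liver). No fold was formed where both were dim, nor where the level of the measured side did not exceed that limit. Members of the latter kind, such as Zfp112 and Zfp365 between the livers, stayed among those compared and counted as not past the threshold.

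Named members are, per comparison and direction, up to 6 with the largest measured fold and up to 4 with the largest bound among those past 4-fold, all members of the role lists, and the 5 with the smallest range. Members and lists were chosen with earlier results of these data known. The steps were tested on simulated data. Normexp used limma 3.58.1. Protein sequences were not used here, so no protein domain was counted.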

Additional observations from a re-analysis of the deposited data

How the results depend on the processing

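Alternatives covered background correction, scaling, the filter on dim probes, the probe per gene and the fold threshold. No paired analysis was possible because each tissue has 1 array. Of the 30 differences of at least 4-fold, 30 kept their direction with normexp, quantile normalization, median scaling and the percentile over probes measured everywhere, and 8, 30, 25 and 30 of them stayed past 4-fold. With spike-in scaling 22 of 30 kept direction and 17 stayed past 4-fold. With the mean of a gene's probes 28 of 29 kept direction and 19 stayed past 4-fold. Only probes measured on all arrays gave 20, all unchanged by construction.

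For adult over fetal liver, 2 members were higher, but 0 with normexp, 0 with spike-ins, 1 with the mean of probes and 5 at 2-fold. In the same comparison 7 were lower, but 1 with normexp, 18 with spike-ins, 3 with probes measured on all arrays and 28 at 2-fold. For bone marrow over fetal liver, 1 was higher, but 0 with normexp, with the filter or with the mean of probes, 2 with median scaling, 55 with spike-ins and 5 at 2-fold, and 6 were lower, but 2 with normexp, 3 with median scaling, 0 with spike-ins and 25 at 2-fold. For adult liver over bone marrow, 5 were higher, but 3 with normexp, median scaling or the mean of probes, 0 with spike-ins and 16 at 2-fold, and 9 were lower, but 2 with normexp, 83 with spike-ins and 26 at 2-fold. The cause was not tested.

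The members' median log2 difference of bone marrow over fetal liver (-0.41) turned to 0.0345 with median scaling and 2.17 with spike-ins. That of adult liver over bone marrow (-0.16) turned to 0.0678 with normexp and was -3.28 with spike-ins. The median of adult over fetal liver (-0.59) was -0.20 with normexp and -0.38 with the mean of probes. Spike-in scaling moves all genes by 1 constant per comparison, so which genes turn follows from the size of their difference. They were, for bone marrow over fetal liver, Zfp105 (0.49), Zfp369 (0.12), Zfp383 (0.36) and Zfp428 (0.27), and, for adult liver over bone marrow, Zfp125 (-0.74), Zfp444 (-0.72), Zfp445 (-0.76) and Zfp467 (-1.03). Zfp473 in adult over fetal liver turned to -0.38 with the mean of its probes, a value that takes a probe not above background in adult liver as measured. Dim signals limit what can be seen: the signals of all 113 members, dim ones included, had medians of 75.7 in adult liver, 250 in bone marrow and 151 in fetal liver, and a member dim in a tissue has only a bound there.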
